A study of Mus musculus with 2 samples.

Results

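Sim1 glutamatergic neurons of the mouse preoptic area (POA) are described here in 2 single-nucleus RNA libraries, one made after ultrasound and one after sham treatment. A nucleus was taken as a Sim1 neuron when it held at least 1 UMI (unique molecular identifier, 1 counted RNA molecule) of Sim1 and at least 1 of Slc17a6, fewer than 10 UMIs of Avp and Oxt together, and none of Adcyap1 or Skor2. Its genes had to number 200 to 7500, its UMIs 2000 or more, and no more than 5% of them could be mitochondrial. This rule found 516 nuclei among 3211 Slc17a6-positive nuclei, 20952 nuclei that passed the filters and 23800 deposited barcodes. The other 2695 Slc17a6-positive nuclei were the comparison class.

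The study asked which POA neurons and which molecule respond when ultrasound to this region brings mice into a torpor-like state. The US+ library came from ultrasound-treated mice and the US- library from sham-treated controls. All mice were wild-type C57BL/6NCrl animals of 6 to 9 weeks, and the POA was taken about 1 h after stimulation. The study used male and female mice and does not give the sex of those pooled here. Of the sex-linked genes, Xist was seen in 98.6% of US- and 97.6% of US+ passing nuclei, and the Y-linked Ddx3y in 1.30% and 1.74%. Tissue of 4 mice was pooled before each library, neuronal nuclei were sorted by the nuclear protein NeuN, and about 25000 nuclei per group went into 10x Genomics droplets. With 1 library per condition there is no replicate: no test across libraries was possible, condition, pool and dissection cannot be told apart, and each interval below is a 95% interval that covers counting error only.

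Sim1 is a transcription factor that the hypothalamus needs to form the paraventricular nucleus, the supraoptic nucleus and neighbouring groups of cells. It acts with the partner Arnt2 and with Otp and Pou3f2, and the neurons it specifies include magnocellular cells that release vasopressin (Avp) or oxytocin (Oxt) and parvocellular cells that release Trh, Crh or Sst. Slc17a6 encodes VGLUT2, the transporter that loads glutamate into synaptic vesicles of most hypothalamic excitatory neurons. Ebf1, a helix-loop-helix transcription factor, is the marker named with these cells that the rule did not use.

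The Sim1 neurons numbered 135 in the US- library and 381 in the US+ library. They held 1384145 and 4267079 UMIs in all, with medians of 9102 and 9615 UMIs per nucleus. NeuN itself (Rbfox3) was seen in 84.4% of the US- and 83.7% of the US+ Sim1 neurons. The libraries shared 29 barcodes, 1 Sim1 neuron carried such a barcode, and none was a Sim1 neuron in both. Too few UMIs (under 2000) removed 5.34% of the barcodes that passed the other filters in US- and 16.7% in US+. With the limit at 1000 UMIs, Sim1 neurons were 9.56% of the Slc17a6-positive nuclei in US- and 20.6% in US+. With the limit of 2000 UMIs used here, these shares were 9.64% and 21.0%. Whether barcodes under 1000 UMIs bear on the shares was not tested.

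The genes of the rule lay close to its limits in many nuclei. Sim1 (chromosome 10, 50894754 to 50989152, plus strand; this and later positions are of whole genes in GRCm38, GENCODE vM21) had a median of 2.0 and a maximum of 10 UMIs, and 188 of the 516 nuclei (36.4%) had exactly 1. Slc17a6 (chromosome 7, 51622006 to 51671119, plus strand) stood at exactly 1 UMI in 308 nuclei (59.7%). The limit on Avp and Oxt fell in a sparse range: 1 Sim1 neuron held 5 to 9 of these UMIs, 2 of the 62 nuclei above the limit held 10 to 14, and 312 Sim1 neurons (60.5%) held none. The depth limit also lay away from the members, since 4 had 2000 to under 3000 UMIs and no nucleus with 1000 to under 2000 UMIs met the other terms.

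Of 700 passing nuclei with both Sim1 and Slc17a6, the rule left out 62 for Avp or Oxt and 122 for Adcyap1 or Skor2. A further 680 passing nuclei had Sim1 but no Slc17a6 UMI and so fell outside the rule. Their median depth was 7764 UMIs in US- and 7969 in US+, below the Sim1 neurons. Their pooled levels, in counts per 1000000 UMIs of the class (CPM), were 427 (411-443) for Ebf1, 33.2 (28.8-38.0) for Otp and 71.5 (65.1-78.4) for Trh, beside 440 (423-457), 30.4 (26.1-35.3) and 62.8 (56.5-69.7) in the Sim1 neurons. The intervals of Ebf1, Otp and Trh overlapped between nuclei with and without a Slc17a6 UMI. Those of several other genes did not: without Slc17a6, Pou3f2 (27.4, 23.4-31.7, against 17.2, 13.9-20.9), Angpt1 (144, 135-154, against 111, 102-120) and Gad1 (48.0, 42.7-53.6, against 27.8, 23.6-32.5) were higher, and Unc13c (533, 515-551, against 653, 632-675), Onecut2 (54.1, 48.5-60.1, against 73.3, 66.4-80.7) and Lgr5 (8.33, 6.24-10.9, against 20.2, 16.6-24.2) were lower.

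Among these NeuN-sorted nuclei, Sim1 neurons took a larger share of the US+ than of the US- library. They were 9.64% (8.14-11.3%) of the Slc17a6-positive nuclei in US- and 21.0% (19.2-23.0%) in US+, or 7.79% and 16.8% without sub-cluster 1, a set of deep nuclei with GABAergic markers described below. Of all passing nuclei they were 1.22% (1.03-1.45%) and 3.84% (3.47-4.24%). The intervals did not overlap on either base. The share of Slc17a6-positive nuclei as a whole among passing nuclei was 12.7% (12.1-13.3%) in US- and 18.3% (17.5-19.0%) in US+, so the composition differed beyond the Sim1 neurons.

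A Sim1 UMI was also seen in some nuclei that should lack it. Among GABAergic nuclei, defined here by UMIs of Gad1 and Slc32a1 and none of Slc17a6, 0.898% (0.449-1.60%) in US- and 2.74% (1.84-3.91%) in US+ held Sim1, at medians of 10204 and 9775 UMIs. Among all passing nuclei the shares were 3.53% (3.20-3.89%) and 9.99% (9.40-10.6%). That base holds the Sim1 neurons themselves and the other Sim1 nuclei described above. Its share therefore does not measure Sim1 UMIs in nuclei that should lack them. Both shares were higher in US+, and how far free RNA adds members to the US+ library was not tested. With at least 2 Sim1 UMIs asked for, the share of Slc17a6-positive nuclei was 7.07% in US- and 12.7% in US+.

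Ebf1 (chromosome 11, 44617317 to 45008091, plus strand) marked the Sim1 neurons in both libraries. Its level was 317 CPM (288-348) in US- and 479 CPM (459-501) in US+ Sim1 neurons, beside 74.9 (70.2-79.8) and 120 (114-126) in the other Slc17a6-positive nuclei. The ratio was 4.24 (3.78-4.75) in US- and 4.00 (3.75-4.26) in US+. Pooled over the libraries it was 4.45, above both, since US+, where Ebf1 was higher in either class, gave 381 of the 516 Sim1 neurons but 1429 of the 2695 other nuclei. Without sub-cluster 1 the pooled ratio was 5.59. Ebf1 was seen in 44.4% and 59.8% of Sim1 neurons, 9.16% and 16% of other Slc17a6-positive nuclei (medians 8840 and 8605 UMIs) and 4.73% and 6.24% of the deeper GABAergic nuclei. Thinned to 2000 UMIs per nucleus, the shares were 29.6% and 40.2% in Sim1 neurons, 5.61% and 9.94% in other Slc17a6-positive nuclei and 2.94% and 3.50% in GABAergic nuclei. Not every Sim1 neuron gave an Ebf1 UMI, and the share with one differed among the sub-clusters below.

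**Figure D1:**
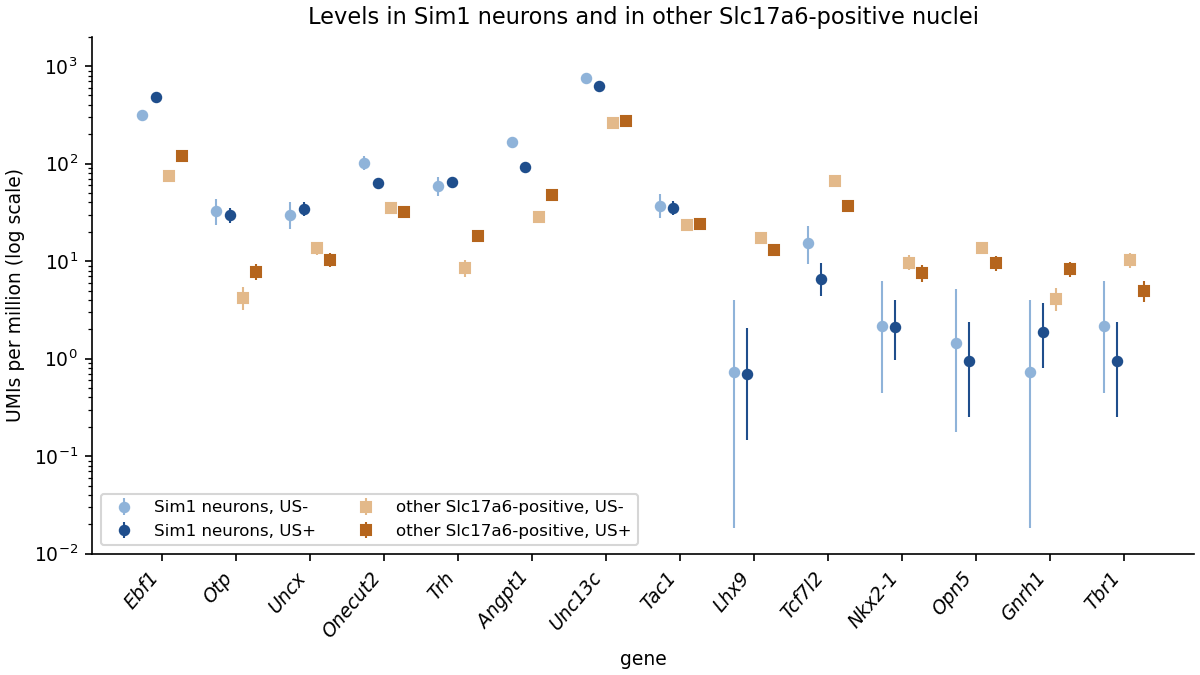
Levels of 14 genes in CPM (log axis) in Sim1 neurons (circles) and other Slc17a6-positive nuclei (squares), light for US- and dark for US+, with 95% Poisson intervals. Ebf1, Otp, Trh and Uncx are higher in Sim1 neurons in both libraries and Lhx9, Tcf7l2, Nkx2-1 and Opn5 are lower.

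The transcription factors of the Sim1 lineage had the highest median of the gene lists compared between Sim1 neurons and the other Slc17a6-positive nuclei. A gene was counted when its CPM, with 1 CPM added, differed at least 2-fold in the same direction within each library. Outside the genes of the rule, 38 of 13944 genes with at least 100 UMIs were higher by this measure (0.273%) and 66 were lower (0.473%), with a median log2 ratio over all genes of -0.01. Without sub-cluster 1, described below, 59 (0.423%) and 178 (1.28%) of the same 13944 genes passed, with the limit of 100 UMIs not applied again. Of 9 Sim1-lineage factors, 3 were higher (Otp, Sim2 and Ebf1) and none lower, with a median of 1.14. Since the nuclei were picked by Sim1, these counts describe the class and test nothing.

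Otp (chromosome 13, 94875602 to 94885130, plus strand), a homeodomain factor needed for the same neuroendocrine neurons, stood at 32.5 CPM (23.7-43.5) in US- and 29.8 (24.8-35.4) in US+ Sim1 neurons, against 4.16 (3.12-5.44) and 7.77 (6.39-9.36) in the comparison class. The log2 ratio of 2.25 was the highest of the genes with at least 200 UMIs. Sim2, the paralog of Sim1, stood at 17.3 (11.1-25.8) and 9.61 CPM (6.90-13.0) against 1.80 and 2.24. The others of the list, apart from Ebf1, did not pass the fold in both libraries. Ebf2, pooled over the libraries, had a ratio of 2.19 (1.72-2.76). Pou3f2, a POU factor of vasopressin and oxytocin neurons, had ratios of 3.35 (2.22-4.95) in US- and 1.65 (1.19-2.25) in US+, and Arnt2, the partner of Sim1, had ratios of 1.19 (1.02-1.38) and 1.06 (0.972-1.17). Onecut2, a cut-homeodomain factor outside this list, had 2.94 (2.41-3.56) and 2.01 (1.72-2.34), the latter short of the fold once 1 CPM was added. Uncx, a homeodomain factor named here after its values were seen, had 2.19 (1.52-3.10) and 3.35 (2.64-4.24).

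Trh (chromosome 6, 92242061 to 92244650, minus strand), which encodes thyrotropin-releasing hormone, was the one peptide of 24 tested that passed the fold in the higher direction. It stood at 58.5 CPM (46.5-72.7) in US- and 64.2 (56.8-72.3) in US+ Sim1 neurons, against 8.47 (6.95-10.2) and 18.1 (15.9-20.4). Trh was seen in 33.3% and 35.4% of Sim1 neurons, 4.98% and 11.4% of other Slc17a6-positive nuclei and 2.94% and 6.24% of GABAergic nuclei. The level was like in both libraries within the Sim1 neurons, while in the comparison class it was higher in US+. That class held the 121 Sim1 Slc17a6 nuclei with Adcyap1 that the rule set aside, 29 in US- and 92 in US+. They gave 144 of its 366 Trh UMIs, and their part in the higher US+ level was not tested.

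Other peptide genes gave smaller contrasts. Sst (somatostatin) stood at 28.2 (20-38.5) and 32.1 CPM (27.0-38.0) against 12.6 and 21.1, and Tac1 (substance P precursor) at 36.8 (27.4-48.4) and 34.9 (29.5-41.0) against 23.4 and 24.2. Crh rested on 2 UMIs in US- and 20 in US+ and could not be placed. Gnrh1, the gonadotropin-releasing hormone gene of a separate set of POA neurons, was the one peptide that passed in the lower direction, with 1 and 8 UMIs in Sim1 neurons against 4.08 and 8.26 CPM. The median over the 24 peptides was -0.14.

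In the list of peptide and hormone receptors, which also holds the opsin gene Opn5, none of 46 genes tested passed in the higher direction and Opn5 passed in the lower. Ghr, the growth hormone receptor, stood at 293 (265-323) and 274 CPM (258-290) against 160 and 167, with ratios of 1.83 (1.64-2.04) and 1.64 (1.53-1.76). Calcr, the calcitonin receptor, had ratios of 1.88 (1.47-2.38) and 1.23 (1.06-1.42), and Galr1, a galanin receptor, had 1.67 (1.01-2.65) and 1.69 (1.28-2.23). Qrfpr, the receptor for the QRFP peptide, had 2.30 (1.41-3.63) and 1.59 (1.15-2.19). The receptor list as a whole had a median of -0.07. Mtnr1a (a melatonin receptor), with ratios of 6.70 (3.29-13.3) and 2.62 (1.65-4.14), Nmur2 (a neuromedin U receptor), with 2.67 (1.73-4.01) and 2.19 (1.72-2.77), and Agtr1a (an angiotensin receptor), with 4.09 (2.29-7.07) and 2.25 (1.53-3.27), were seen among the 38 genes and are named after their values were seen.

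The remaining genes highest in Sim1 neurons were of mixed kinds. Angpt1, an angiopoietin that signals to blood vessels (chromosome 15, 42424723 to 42676977, minus strand), stood at 165 CPM (145-188) in US- and 93.0 (84.1-103) in US+ against 28.2 and 48.1, and its US+ ratio of 1.93 (1.71-2.19) fell short of the fold. Hmcn1, a matrix protein, had ratios of 7.13 (4.00-12.5) and 2.28 (1.75-2.95), Efemp1, another matrix protein, 5.23 (3.07-8.74) and 2.75 (1.97-3.83), and Adamts19, a metalloprotease, 3.85 (2.48-5.84) and 3.23 (2.52-4.13). Asic4, of the acid-sensing channel family, had 4.87 (3.18-7.35) and 2.74 (1.85-4.05). Unc13c, a vesicle priming protein named after its values were seen, stood at 762 (717-810) and 618 CPM (594-642) against 261 and 274. Another 4 of the 12 highest were predicted loci (Gm10637, Gm27016, Gm2694 and Gm12239), whose reads may belong to overlapping genes.

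**Figure D2:**
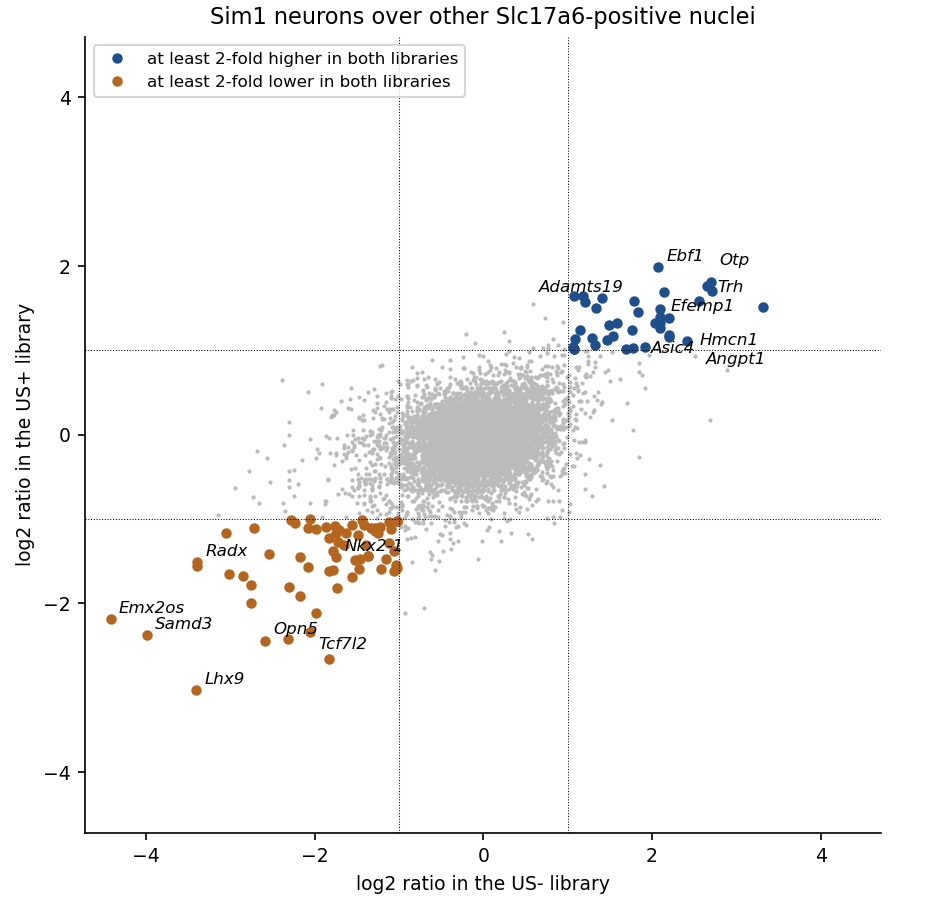
Each point is 1 of the genes with at least 100 UMIs, placed by its log2 ratio of Sim1 neurons over other Slc17a6-positive nuclei with 1 CPM added, in US- (x axis) and in US+ (y axis). The 38 genes at least 2-fold higher in both libraries are blue, the 66 at least 2-fold lower are orange, and dotted lines mark the fold.

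Several transcription factors of other hypothalamic and forebrain lineages were lower in Sim1 neurons. Of 41 tested, 8 were lower (Nkx2-1, Lhx1, Lhx9, Tbr1, Eomes, Tcf7l2, Meis2 and Sox6) and none higher, with a median of -0.66. Lhx9 (chromosome 1, 138825186 to 138848577, minus strand), a LIM-homeodomain factor, gave 1 UMI in US- and 3 in US+ Sim1 neurons, against 17.3 CPM (15.1-19.7) and 13.0 (11.2-15). Tcf7l2 (chromosome 19, 55741820 to 55933654, plus strand), a Wnt effector of thalamic neurons, stood at 15.2 (9.39-23.2) and 6.56 CPM (4.36-9.48) against 66.5 and 37.2. Nkx2-1, a factor of ventral hypothalamic progenitors, stood at 2.17 (0.447-6.33) and 2.11 (0.964-4.00) against 9.65 and 7.49. Tbr1, a cortical factor, stood at 2.17 (0.447-6.33) and 0.937 (0.255-2.40) against 10.3 and 4.90. A count of 3 UMIs corresponds to 2.17 CPM in US- and 0.703 in US+, so the levels of Lhx9 in both libraries and of Nkx2-1 and Tbr1 in US- were no higher than 3 UMIs give. Meis2 and Sox6 stood well above that floor, Meis2 at 133 (114-154) and 76.2 CPM (68.1-84.9) and Sox6 at 30.3 (21.9-41.0) and 28.6 (23.7-34.1). Sub-cluster 1, described below, held 452 of the 509 Meis2 UMIs and 122 of the 164 Sox6 UMIs of the Sim1 neurons. Pooled over the libraries, Meis2 was at 226 CPM in sub-cluster 1 and at 15.6 CPM in the rest.

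The 8 lowest genes were Emx2os, Lhx9, Samd3, Opn5, Pantr2, Radx, Lhx1os and Lrrc9. Emx2os, antisense to the cortical factor gene Emx2, gave no UMI in US- Sim1 neurons and 10 in US+ (2.34 CPM, 1.12-4.31) against 20.4 and 14.2. Opn5, a violet-light-sensitive opsin of POA glutamatergic neurons, gave 2 and 4 UMIs against 13.7 (11.8-15.9) and 9.52 CPM (7.99-11.3). Samd3 stood at 2.17 and 5.16 CPM against 49.3 and 31.0. Each of these 3 was low in Sim1 neurons of both libraries.

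Genes for transmission and excitability mostly did not set Sim1 neurons apart. None of 25 glutamate transmission genes, 20 GABA transmission genes, 27 genes of other transmitters, 16 TRP and PIEZO channels, 17 pacemaker and calcium channels or 32 potassium channels passed in either direction, and the medians of these lists ran from -0.16 to 0.01. Chrm3, a muscarinic receptor, came close to it at 114 (97.0-133) and 186 CPM (173-199) against 356 and 364, ratios of 0.321 (0.272-0.376) and 0.510 (0.473-0.550). Esr1, the estrogen receptor that marks POA neurons linked to torpor, stood at 46.2 (35.6-59.0) and 61.4 CPM (54.2-69.3) against 78.5 and 94.6. Qrfp, another such marker, gave no UMI in US- and 1 in US+. Trpm2 (chromosome 10, 77907722 to 77970563, minus strand), a temperature- and oxidant-gated cation channel that the study examined, stood at 21.0 (14-30.1) and 24.8 CPM (20.3-30.0) against 28.5 and 23.2. Trpm3, a steroid- and heat-gated channel, had ratios of 1.73 (1.64-1.82) and 1.11 (1.07-1.15). Piezo1, a mechanically gated channel, gave no UMI in either library, which allows up to 2.17 CPM in US- and 0.703 in US+ at 3 UMIs. The neuronal genes Kif5c (ratios 0.955 and 0.935) and Camk2a (1.05 and 0.910) were near even.

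Markers of other cell types were checked in the same nuclei. Of the glial and vascular genes, Csf1r, C1qb and Gfap gave no UMI in Sim1 neurons of either library, and Aqp4 and Mog stood at 0 to 4.22 CPM. The sum of 6 GABAergic markers was 196 CPM (173-221) in US- and 239 (224-254) in US+, below the 304 and 324 of the other Slc17a6-positive nuclei and the 920 and 867 of GABAergic nuclei. Without sub-cluster 1 it was 121 (100-145) and 150 (136-166). UMIs of both Gad1 and Slc32a1 were found in 23 Sim1 neurons (4.46%). Sums over the lists were 154 and 156 CPM for 6 microglia markers (2 of them at 0), 15.9 and 13.4 for 5 vascular markers, 2.17 and 3.05 for 4 precursor markers, 10.1 and 10.5 for 4 cortical-type markers and 860 and 807 for 7 striatal-type markers.

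The nuclei that the rule set aside on Avp, Oxt, Adcyap1 and Skor2 differed from each other, in levels pooled over both libraries. The 62 nuclei with at least 10 Avp and Oxt UMIs had more Sim1 (400 CPM, 355-450, against 237, 225-251), Otp (61.9, 44.8-83.4, against 30.4, 26.1-35.3), Pou3f2 (83.5, 63.4-108, against 17.2, 13.9-20.9) and Angpt1 (320, 279-364, against 111, 102-120) than the Sim1 neurons. Their Ebf1 was 17.3 CPM (8.93-30.2) against 440 (423-457), their Unc13c was also 17.3 (8.93-30.2) against 653 (632-675), and their Trh was 7.20 (2.34-16.8) against 62.8 (56.5-69.7). Sim1 and Otp were thus higher in the vasopressin and oxytocin nuclei, and Ebf1, Unc13c and Trh were higher in the Sim1 neurons.

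The 121 nuclei with Sim1, Slc17a6 and Adcyap1 (the PACAP peptide gene) matched the Sim1 neurons in some genes and not in others. Their Sim1, at 233 CPM (210-257), and Otp, at 29.1 (21.5-38.6), had intervals that overlapped those of the Sim1 neurons. They had more Ebf1 (553, 517-590), Trh (87.4, 73.7-103), Tac1 (57.7, 46.7-70.5, against 35.4, 30.7-40.6), Esr1 (89.9, 76.0-106, against 57.7, 51.6-64.3) and Bdnf (47.4, 37.4-59.1, against 27.3, 23.1-31.9). They had less Sst (17.6, 11.8-25.3, against 31.1, 26.7-36.1) and Lgr5 (6.07, 2.91-11.2, against 20.2, 16.6-24.2). The 224 Adcyap1 nuclei without Sim1 had Ebf1 at 147 (132-163), Otp at 3.66 (1.67-6.94) and Trh at 7.72 (4.65-12.1). The 116 Skor2 nuclei had Ebf1 at 23.7 (16.2-33.5) and Otp at 0.741 (0.0188-4.13). In Ebf1, Otp and Trh the Sim1 nuclei with Adcyap1 stood nearer to the Sim1 neurons than to the Adcyap1 nuclei without Sim1, while in Lgr5 they stood nearer to the latter, at 7.72 (4.65-12.1).

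Within the Sim1 neurons, Leiden clustering gave 8 sub-clusters, and the rule genes, early genes, mitochondrial genes and sex-linked genes were left out of its features. The sub-clusters are called by number and leading genes, no test was made between them, and the genes given identify them and are no result. Sub-cluster 1 held 120 nuclei and was led by Meis2 (226 CPM), Foxp2 (185), Gm38505, Sox2ot, Rarb and Lmo7. Its median depth of 15530 UMIs was above the 6151 to 10061 of the others, Gad2 was seen in 76.7% and Gad1 in 48.3% of its nuclei, and its 6 GABAergic markers summed to 385 CPM. Sim1 was at 140 CPM there and at 225 to 501 in the others. Whether doublets are among these nuclei was not tested, and the main results that it moves are also given without it.

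The share of nuclei with Ebf1 differed among the other sub-clusters. It was seen in 81.5% of the 119 nuclei of sub-cluster 2 (771 CPM), 83.1% of the 59 of sub-cluster 3 (1165 CPM) and 77.8% of the 45 of sub-cluster 5 (571 CPM), and in 22.5% to 34.4% of sub-clusters 4, 6, 7 and 8. Its level was 86.4, 73.6 and 134 CPM in sub-clusters 4, 6 and 7, but 593 (509-687) in sub-cluster 8, an interval that overlapped that of sub-cluster 5 (507-641). Sub-cluster 2 was led by 9330185C12Rik, Adamts19 (91.7 CPM), Npas3 and Chst9 and had Tac1 at 71.0 CPM. Sub-cluster 3 had Angpt1 at 436 CPM, Trh at 179, Tacr1 (the substance P receptor) at 119, Hcrtr2 (an orexin receptor) at 84.5 and the growth factor gene Bdnf at 86.5. Sub-cluster 5 was led by Gm10754, Gm40663, Adarb2, Vcan, Chrm2 (760 CPM) and Lgr5 and had the histamine receptor gene Hrh2 at 69.7.

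The sub-clusters low in Ebf1 detection were set apart by other genes. Sub-cluster 4 (58 nuclei) was led by Hmcn1 (171 CPM) and Gm20631 and had Rorb, a retinoid-related orphan receptor gene, at 297. Sub-cluster 6 (43 nuclei) was led by Dach2, Onecut1 and Wdr95 and had Onecut2 at 306, Ddc, an enzyme of monoamine synthesis, at 105 and Trh at 135. Sub-cluster 7 (40 nuclei) was led by Gulp1 (485 CPM), Il1rapl2 and Reln, had the channel gene Trpm3 at 4459 and the highest Sim1 of the 8, 501 CPM, with Trh at 185. Sub-cluster 8 (32 nuclei) was led by Ebf2 (333 CPM) and Sst (347 CPM, seen in 53.1%), with the angiotensin receptor gene Agtr1a at 127, Ghr at 1400 and Trh at 3.33. Trh and Sst were thus high in different sub-clusters.

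**Figure D3:**
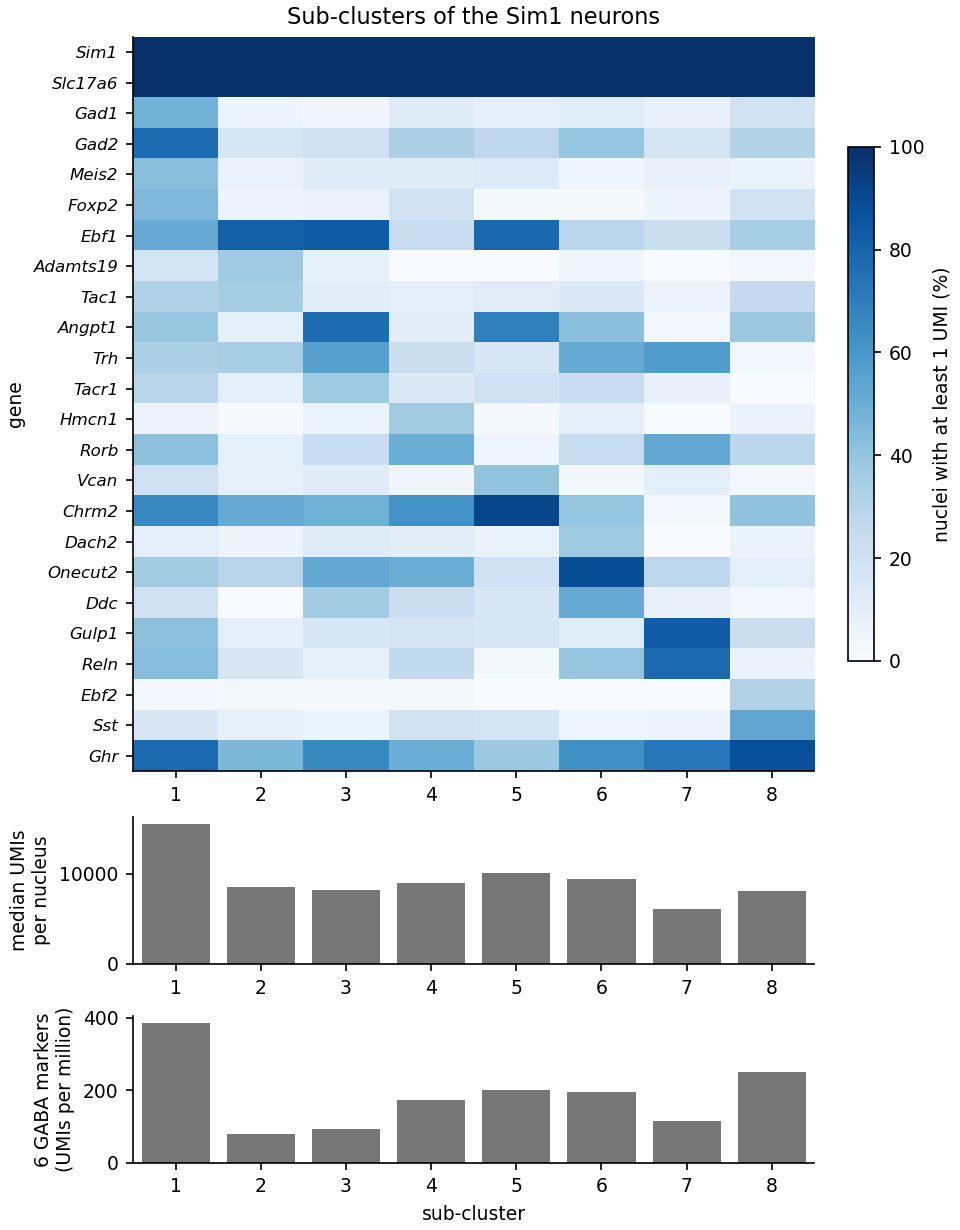
The upper panel gives the percent of nuclei with at least 1 UMI of each gene (rows) in the 8 sub-clusters (columns), and the lower panels give the median UMIs per nucleus and the summed level of 6 GABAergic markers in CPM. Sub-cluster 1 has both the deepest nuclei (median 15530) and the highest GABAergic sum (385).

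All 8 sub-clusters held nuclei of both libraries. Among Sim1 neurons, sub-cluster 7 had a share of 14.1% (8.69-21.1%) in US- and 5.51% (3.44-8.30%) in US+, and sub-cluster 6 had 12.6% (7.51-19.4%) and 6.82% (4.51-9.84%). Sub-cluster 2 had 18.5% (12.4-26.1%) and 24.7% (20.4-29.3%), and sub-cluster 4 had 7.41% (3.61-13.2%) and 12.6% (9.44-16.4%). Of these 4, the intervals of sub-cluster 7 did not overlap. These shares rest on 9 to 28 US- nuclei per sub-cluster and on features that include genes differing between the libraries.

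Between the libraries, 199 of 8080 genes with at least 100 UMIs in Sim1 neurons were at least 1.5-fold higher in US+ (2.46%) and 139 at least 1.5-fold lower (1.72%), with a median log2 ratio of -0.02 over all genes. Without sub-cluster 1, over the same 8080 genes, 329 (4.07%) were higher and 227 (2.81%) lower, of which 158 and 84 were shared with the first count. The limit of 100 UMIs was not applied again, so some of these genes could hold fewer UMIs there. The 8 highest with at least 200 UMIs were 5 mitochondrial transcripts (mt-Nd2, mt-Nd4, mt-Co1, mt-Co2 and mt-Cytb), Zbtb16, Trpc6 and Zeb2. The 8 lowest were Gulp1, Lmo3, Pde1c, Sv2c, Angpt1, Rarb, Meis2 and Kctd8. No gene list other than the mitochondrial one was called in most of its tested members. Counts for the Sim1 neurons of both libraries were also simulated with counting error only. In them, 132 of 7880 unchanged genes (1.68%) passed 1.5-fold in either direction, so part of the calls above can come from counting error.

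**Figure D4:**
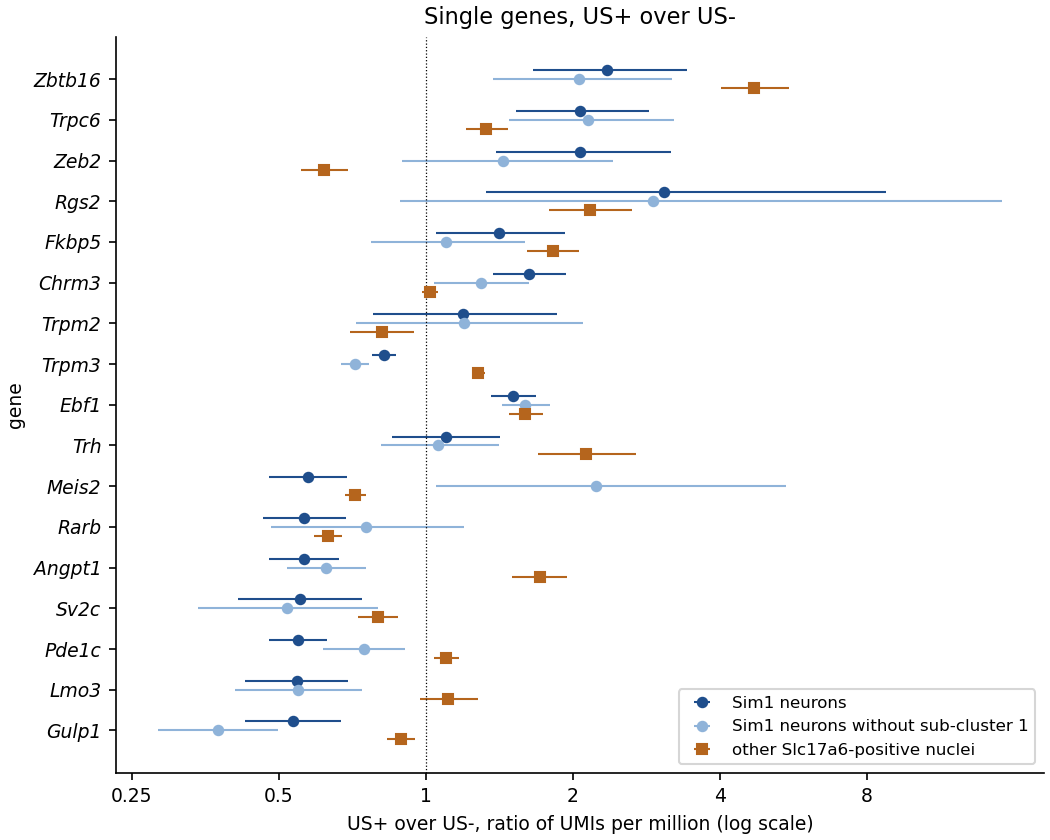
Ratio of CPM in US+ over US- (log axis) with 95% intervals for counting error, for 17 genes in Sim1 neurons (dark circles), Sim1 neurons without sub-cluster 1 (light circles) and other Slc17a6-positive nuclei (squares). Zbtb16 is above 1 in all 3, and Angpt1 is below 1 in Sim1 neurons and above 1 in the other nuclei.

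Zbtb16 (chromosome 9, 48654297 to 48836222, minus strand), a zinc finger factor that glucocorticoids induce in many tissues, had the highest ratio of these genes outside the mitochondrial ones. It stood at 26.0 CPM (18.2-36.0) in US- and 61.2 (54.0-69.1) in US+ Sim1 neurons, a ratio of 2.35 (1.66-3.43). The ratio was 2.06 (1.37-3.19) without sub-cluster 1 and 4.71 (4.03-5.54) in the other Slc17a6-positive nuclei. Fkbp5, a chaperone gene of the same list, stood at 39.0 (29.3-50.9) and 55.1 CPM (48.3-62.6), and its ratio of 1.41 (1.05-1.93) was 1.10 (0.772-1.60) without sub-cluster 1. Of the 4 glucocorticoid-induced genes tested, Zbtb16 was the one past the fold. The sum of all 10 stood at 172 (151-195) and 226 CPM (212-241), a ratio of 1.31 (1.14-1.52) that was 1.17 (0.984-1.40) without sub-cluster 1.

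Trpc6 (chromosome 9, 8544142 to 8680741, plus strand) encodes a diacylglycerol-gated cation channel. It stood at 35.4 CPM (26.2-46.8) in US- and 73.4 (65.5-81.9) in US+ Sim1 neurons, a ratio of 2.07 (1.53-2.86), with 2.15 (1.48-3.22) without sub-cluster 1 and 1.33 (1.21-1.47) in the other Slc17a6-positive nuclei. Trpm2 had a ratio of 1.19 (0.780-1.86), an interval that holds both no difference and the 1.5-fold used here. Trpm3 stood at 1272 (1214-1333) and 1045 CPM (1015-1076), a ratio of 0.822 (0.777-0.869), and 0.882 with each sub-cluster given equal weight. Of the 15 calcium and pacemaker channels and 29 potassium channels tested, none passed in either direction.

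Lineage and peptide genes of the Sim1 neurons gave ratios on both sides of 1. Otp had a ratio of 0.915 (0.647-1.32) and Trh 1.10 (0.853-1.42). Ebf1 had 1.51 (1.36-1.68), and 1.28 with each sub-cluster given equal weight. Ebf2, the leading gene of sub-cluster 8, had 0.430 (0.289-0.645), and 0.581 with equal weight. Of 11 peptide genes, Nts (neurotensin), at 10.8 (6.07-17.9) and 21.1 CPM (17.0-25.9), and Scg3 (a secretory granule protein), at 38.3 (28.7-50.1) and 58.8 (51.8-66.6), passed in the higher direction, with ratios of 1.95 (1.12-3.62) and 1.54 (1.14-2.11). None of 19 peptide and hormone receptors passed in either direction.

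The genes lower in US+ held several that mark sub-clusters. Gulp1, the first gene of sub-cluster 7, stood at 93.9 (78.5-112) and 50.2 CPM (43.7-57.3). Its ratio was 0.534 (0.427-0.669), and 0.705 with equal weight for each sub-cluster. Angpt1 had a ratio of 0.562 (0.477-0.665), and 0.594 with equal weight. Lmo3, a LIM-only cofactor gene, had 0.544 (0.427-0.694), and Pde1c, a cyclic nucleotide phosphodiesterase gene, 0.547 (0.477-0.628). Meis2, the first gene of sub-cluster 1, had 0.573 (0.477-0.690), and 2.23 (1.05-5.46) on the few UMIs left without that sub-cluster, so its direction depends on those nuclei.

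Zeb2, a zinc finger repressor gene, was 21.0 (14-30.1) and 43.4 CPM (37.3-50.1), a ratio of 2.07 (1.39-3.18). Without sub-cluster 1 the ratio was 1.44 (0.895-2.42). Chrm3 had 1.63 (1.37-1.94) and 1.30 (1.04-1.63) in the same order. Both were therefore larger with sub-cluster 1 than without it. Hsph1, a heat shock protein gene, stood at 43.3 (33.1-55.8) and 22.3 CPM (18.0-27.2), the one of 10 cold-inducible and heat shock genes past the fold. Sik1, a kinase gene that cAMP induces, stood at 16.6 (10.5-24.9) and 7.50 (5.13-10.6).

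The early genes that the study used to read neuronal activity (Fos, Fosb, Nr4a1, Egr1 and Dusp1) were sparse in Sim1 neurons. Their sum was 32 UMIs in US- and 165 in US+, that is 23.1 (15.8-32.6) and 38.7 CPM (33.0-45.0), a ratio of 1.67 (1.14-2.53). Without sub-cluster 1 it was 25.6 (16.6-37.8) and 26.5 CPM (20.7-33.5), a ratio of 1.04 (0.648-1.71). Within sub-cluster 1 it was 7 and 94 UMIs, a ratio of 3.45 (1.61-8.81). In the other Slc17a6-positive nuclei the ratio was 1.89 (1.65-2.15), and in GABAergic nuclei, whose markers sub-cluster 1 carries, 2.96 (2.64-3.31). Sub-cluster 1 thus held 94 of the 165 early UMIs of the US+ Sim1 neurons. Of all 4267079 UMIs of these nuclei, 2676987 lay outside it. The US+ early level was 59.1 CPM in sub-cluster 1, 97.0 in sub-cluster 8 (20 UMIs), 51.8 in sub-cluster 6 and 4.22 to 47.6 in the others. The ratio was 3.04 (0.543-30.8) in sub-cluster 7, 2.27 (0.762-9.15) in sub-cluster 8 and 0.443 to 1.27 in sub-clusters 2 to 6.

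The early UMIs were spread over few nuclei. At least 1 was found in 24 US- (17.8%, 11.7-25.3%) and 78 US+ Sim1 neurons (20.5%, 16.5-24.9%), beside 17.0% (15-19.2%) and 23.2% (21.1-25.5%) of the other Slc17a6-positive nuclei. At least 3 were found in 1 US- and 17 US+ Sim1 neurons. The 5 highest US+ nuclei held 47 of the 165 UMIs (28.5%), with 18 in the highest, and the highest US- nucleus held 4.

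By gene, Fos (chromosome 12, 85473890 to 85477273, plus strand) gave 5 UMIs in US- and 34 in US+, a ratio of 2.21 (0.858-7.22). Fosb (chromosome 7, 19302696 to 19310051, minus strand) gave 2 and 27, a ratio of 4.38 (1.10-38.0). Nr4a1 gave 11 and 54 (1.59, 0.823-3.38), Egr1 8 and 32 (1.30, 0.586-3.26) and Dusp1 6 and 18 (0.973, 0.370-2.99). Of these 5, the interval of Fosb lay above 1. Npas4, an activity-dependent transcription factor gene, gave 10 and 65 UMIs, a ratio of 2.11 (1.08-4.60) that was 0.875 (0.287-3.17) without sub-cluster 1.

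Of the wider sets, the rapid early genes showed the same dependence, and the other sums changed less. The sum of 34 rapid early genes had a ratio of 1.35 (1.14-1.61) in Sim1 neurons, 0.834 (0.681-1.03) without sub-cluster 1, 1.77 (1.67-1.87) in the other Slc17a6-positive nuclei and 2.57 (2.44-2.71) in GABAergic nuclei. The sum of 22 delayed activity genes had 1.08 (1.01-1.15), and 1.04 (0.967-1.13) without sub-cluster 1. The sum of 15 cold-inducible and heat shock genes had 0.964 (0.890-1.04), and 0.959 (0.874-1.05) without sub-cluster 1.

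**Figure D5:**
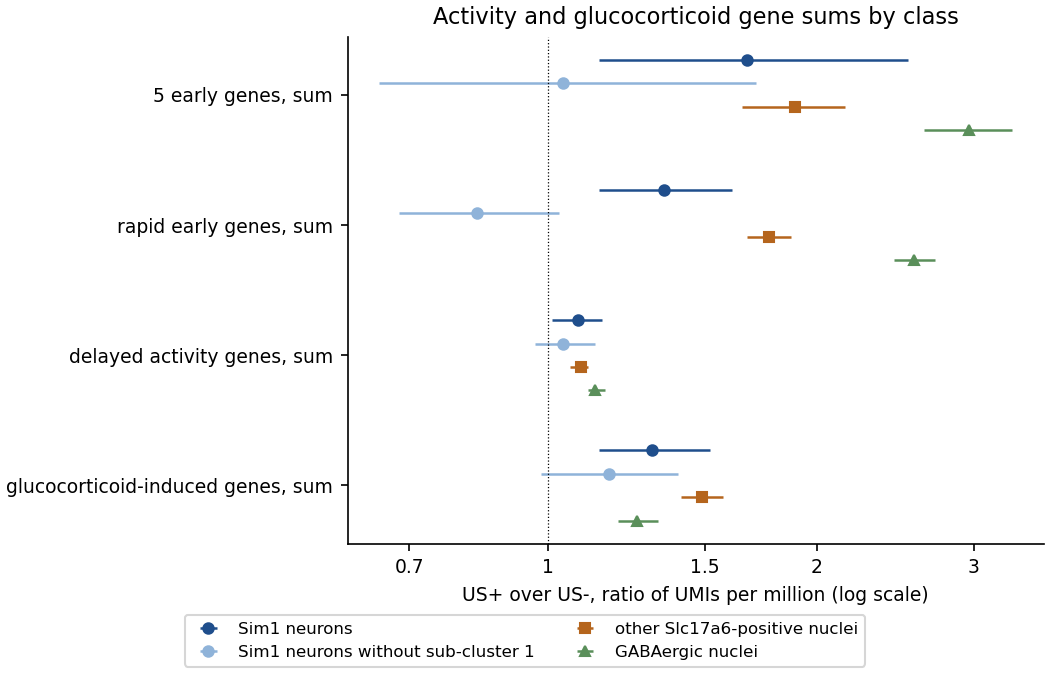
Ratio of summed CPM in US+ over US- (log axis) with 95% intervals for counting error, for 4 gene sums in Sim1 neurons, Sim1 neurons without sub-cluster 1, other Slc17a6-positive nuclei and GABAergic nuclei. The sum of 5 early genes is 1.67 in Sim1 neurons and 1.04 without sub-cluster 1, against 1.89 and 2.96 in the other classes.

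Mitochondrial transcripts and glial markers also differed between the libraries within the Sim1 neurons. The 13 mitochondrially encoded genes summed to 272 CPM (246-301) in US- and 593 (570-616) in US+, a ratio of 2.18 (1.95-2.43), and 8 of 8 tested passed in the higher direction. In the other Slc17a6-positive nuclei the ratio was 1.32 (1.28-1.37). Astrocyte markers summed to 88.1 (73.2-105) and 116 CPM (106-127), with a ratio of 1.01 (0.762-1.36) without sub-cluster 1, and oligodendrocyte markers to 62.9 (50.3-77.5) and 87.6 (79.0-97.0). Avp and Oxt, which the rule limits, were at 0 in 72.6% (64.3-79.9%) of the US- and 56.2% (51.0-61.2%) of the US+ Sim1 neurons. The part of these shifts in the differences above was not tested.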

How the data were processed

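The deposited values are counts: UMI counts per gene and barcode, as the authors' run of Cell Ranger 6.1.1 with an mm10 reference gave them, with depth normalized to the lowest-saturated sample per the study's methods. Nuclei were kept at 200 to 7500 genes, at most 5% mitochondrial UMIs and at least 2000 UMIs. UMIs were summed per library and class and divided by the class total (CPM). Ratios carry exact conditional binomial intervals, levels exact Poisson intervals and shares exact Clopper-Pearson intervals, all at 95% and for counting error only. With 1 library per group no test was made. Counts of genes past a fold used 1 CPM added and at least 100 UMIs. Named genes were the 12 highest and 8 lowest by class and the 8 highest and 8 lowest by library (at least 200 UMIs), list members with at least 50 UMIs, up to 6 leading genes per sub-cluster and genes the study names. The members and lists were chosen with earlier results of these data known. Sub-clusters came from scanpy 1.11.5 and leidenalg 0.10.2 (1974 features, 20 principal components, 15 neighbours, resolution 0.5). No doublet caller was run. The scripts were tested on simulated data. Alternatives changed the limits of the rule, the filters, the added CPM, the depth, the weights, the comparison nuclei and the scaling (edgeR 4.0.16 in R 4.3.3). The alternative without sub-cluster 1 was chosen after seeing the data. One gene-level result is not reported here.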

Additional observations from a re-analysis of the deposited data

Results flagged for a closer look

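Among the genes named above, Angpt1 and Zeb2 moved in opposite directions between the libraries in the Sim1 neurons and in the other Slc17a6-positive nuclei. Angpt1 had a US+ over US- ratio of 0.562 (0.477-0.665) in Sim1 neurons and 1.71 (1.50-1.95) in the other nuclei. Of the 1046 Angpt1 UMIs of the other nuclei, Sim1 Slc17a6 nuclei that the rule set aside gave a large part. Those with at least 10 Avp and Oxt UMIs (26 in US-, 36 in US+) gave 222. Those with Adcyap1 (29 in US-, 92 in US+) gave 226. Their part in the ratio of 1.71 was not tested. Zeb2 had 2.07 (1.39-3.18) in Sim1 neurons, 1.44 (0.895-2.42) there without sub-cluster 1, and 0.620 (0.554-0.693) in the other nuclei. With 1 library per condition, neither difference was tested.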

How the results depend on the processing

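Of 113 values recomputed over 18 settings, 36 moved by more than the counting interval (shares and ratios) or 1.5 times (gene counts). The values as reported were shares of 9.64% and 21.0%, 38 and 66 genes by class, 199 and 139 genes by library, an early gene ratio of 1.67 and a pooled Ebf1 ratio of 4.45. Within these limits, counts and genes could still shift: at least 2 Slc17a6 UMIs gave an early gene ratio of 1.17 and 184 and 108 genes by library (32 and 20 shared), at least 2 Sim1 UMIs gave 133 genes higher by library (74 shared), and a mean over nuclei gave 99 lower by class (56 shared). At least 2 Sim1 UMIs gave shares of 7.07% and 12.7% and an Ebf1 ratio of 3.46, and at least 2 Slc17a6 UMIs gave a US+ share of 25.7% and 22 higher genes (15 shared). With no limit on Avp and Oxt the US- share was 11.3% and the Ebf1 ratio 3.93. With no limit on Adcyap1 and Skor2 the shares were 11.8% and 26.1% and the Ebf1 ratio 6.71. The Ebf1 ratio was 4.72 as a mean over nuclei and 6.21 against nuclei without Sim1. Thinning to 2000 UMIs gave 260 lower genes by class, 971 higher and 839 lower by library, and an early gene ratio of 2.66. Equal weights for sub-clusters gave 304 genes higher by library. With 5 CPM added, the gene counts were 14, 20, 120 and 74. At least 20 UMIs gave 63 higher by class and 993 and 710 by library, and at least 400 UMIs gave 15, 24, 14 and 12. Without sub-cluster 1 the shares were 7.79% and 16.8%, the counts 59 (37 shared), 178 (61 shared), 329 (158 shared) and 227 (84 shared), the early gene ratio 1.04 and the Ebf1 ratio 5.59. Thinning, the mean over nuclei and the setting without sub-cluster 1 used the same tested genes as the main setting. The genes past the fold differed in part. Causes were not tested beyond the construction of each setting, where fewer or more genes or nuclei enter. The early genes rest on 32 UMIs in US-, which limits their precision. No paired analysis was possible because each condition is 1 library, and for the same reason no replicate could be left out.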
